A study of Mus musculus with 8 samples.

Results

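Hepatic stellate cells are the vitamin A-storing cells of the space between the liver endothelium and the hepatocytes, and 9 genes that mark them (Lrat, Reln, Des, Pdgfra, Pdgfrb, Hand2, Acta2, Ecm1 and Dcn) were followed in livers taken 8 h after acetaminophen. The 9 genes were taken by name from 36666 gene names on the array and were read by 21 of its 56605 non-control probes, and all 9 were among the 17565 genes tested. Total RNA came from whole livers of male mice, 4 arrays from mice aged 8 weeks (young) and 4 from mice aged 80 weeks (old). All 8 samples had received acetaminophen, a drug whose oxidised metabolite injures hepatocytes. With no untreated livers analysed here, an age difference present before the drug and one in the response to it cannot be told apart. The dose and the strain are not given in the sources used here. The labels do not say that each array held a separate animal, and the p-values rest on the scatter among arrays, part or all of which may be technical.

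In a healthy liver stellate cells are quiescent: they esterify retinol through the enzyme encoded by Lrat and hold it in lipid droplets. After injury they can become myofibroblasts, which lose these droplets, make contractile filaments and lay down matrix, and platelet-derived growth factor (PDGF) acting on its receptors is among the signals that drive their growth and migration. Several of the 9 genes are shared with other cells of the liver. Des and Acta2 are also made in smooth muscle, Dcn and the PDGF receptors in portal fibroblasts, and so a level in whole tissue is a sum over cell types.

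Levels are on the log2 intensity scale with the array's 75th percentile set to 0, and a positive difference means a higher level at 80 weeks. The number of probes well above background was 24537 to 28536 on the 8 arrays, and no spot was saturated. The first principal component over all genes tested held 49.1% of the variance and set young replicates 1 and 2, at -61.3 and -99.2, apart from the other 6 arrays, at 10.2 to 47.5. Row 1 of the single slide held the young arrays and row 2 the old ones, and the effects of slide row and of age cannot be told apart. Where leaving out young replicates 1 and 2 together moved a printed difference by over 1.5 times, the value without them is given too. Each gene is represented by its brightest tested probe, and since probes differ in how brightly they bind, no gene's level is set against another's.

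The probes that the results turn on are shown because they are the sequences by which the values were read. They are given 5′ to 3′ as in the array files, with positions on build mm9. Exon and UTR annotation of that build was not used here. The Lrat probe lies at chr3:82696805-82696864 and the Reln probe at chr5:21390477-21390536, each in an unbroken genomic stretch on the minus strand, and their first 30 bases are printed. Those of Acta2 (chr19:34322995-34326249, minus strand), Des (chr1:75363404-75363629, plus strand) and Hand2 (chr8:59801251-59802610, plus strand) cover genomic spans of 3255, 226 and 1360 bases with 60 bases of sequence, so they cross exon junctions and are printed whole. The search found 0 other genes on the array with a probe sharing a run of 20 bases with any of these. It compared probes with probes and not with transcripts. Binding of transcripts of related genes, such as other actin genes for the Acta2 probe, was not tested.
Lrat probe: ggcgttgattactgcaaaataaattaactt
Reln probe: ctgtggccgttttactgacagtaactgcca
Acta2 probe: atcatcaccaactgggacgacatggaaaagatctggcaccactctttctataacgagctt
Des probe: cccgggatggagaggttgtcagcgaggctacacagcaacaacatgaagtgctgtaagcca
Hand2 probe: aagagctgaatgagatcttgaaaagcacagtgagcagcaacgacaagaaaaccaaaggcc

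The promoters of Lrat and Reln, the pair of genes with the largest positive differences, are shown for their contrast in base composition. The 250 bases before the transcription start were taken from a RefSeq promoter table on build GRCm38.p6, in which 7 of the 9 genes were matched. Capitals mark GGGCGG on either strand, the core of the GC box, a site type that SP-family factors bind. The Lrat promoter (chr3:82903975-82904224, minus strand) is 59.2% G or C and holds the motif 1 time, whereas that of Reln (chr5:22344706-22344955, minus strand) is 80.0% G or C and holds it 6 times.
Lrat promoter: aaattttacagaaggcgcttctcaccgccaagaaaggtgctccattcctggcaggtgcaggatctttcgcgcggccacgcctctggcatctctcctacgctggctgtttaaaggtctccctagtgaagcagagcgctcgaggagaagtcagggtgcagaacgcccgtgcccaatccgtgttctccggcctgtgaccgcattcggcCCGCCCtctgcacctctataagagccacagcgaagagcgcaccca
Reln promoter: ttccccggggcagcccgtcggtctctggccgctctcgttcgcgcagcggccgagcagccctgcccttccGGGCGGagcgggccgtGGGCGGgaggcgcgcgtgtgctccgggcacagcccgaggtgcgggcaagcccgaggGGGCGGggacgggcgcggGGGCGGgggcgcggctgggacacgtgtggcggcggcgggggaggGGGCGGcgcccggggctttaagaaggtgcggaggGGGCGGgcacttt
The motif was found in 5 of the 7 stellate promoters and in 32.7% of 32851 promoters of the same length. CANNTG, the E-box core that basic helix-loop-helix factors such as the Hand2 protein recognise, was in 7 of 7 and in 66.2% of all. TATAAA was in 1 of the 7, that of Ecm1, and in 12.4% of all. The CArG box, the serum response element core known from smooth muscle actin genes, was searched for as CCWWWWWWGG, with W for A or T. This strict form was in 0 of 7 of these windows and in 1.47% of all. Forms with a G or C among the W bases were not counted, so the 0 does not show that such sites are absent. Each count is over both strands, and a CArG box can contain TATAAA, but 0 of these windows held the strict form.

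The comparison asked whether stellate cell transcripts differed between young and old livers at this time after the drug. None of the 9 genes passed the threshold of 0.05 on the adjusted p (limma, Benjamini-Hochberg over all genes), where 63 of all 17565 genes, or 0.359%, did, 0.33% of all genes being higher and 0.0285% lower in old livers. Of the 9, 5 had a positive and 4 a negative difference, with a median of 0.10, against 52% positive and a median of 0.02 over all genes. At an unadjusted p under 0.05, 2 of the 9 were higher in old livers and 0 lower, where 7.91% of all genes were higher and 6.14% lower. Those 2 were Lrat and Reln. Reln alone had groups that did not overlap, with old higher, as did 4.62% of all genes (8.38% counting either direction). Leaving out young replicates 1 and 2 gave 3 of 9 positive and a median of -0.09. Over all genes that setting gave 42.5% positive and a median of -0.06.

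Lrat encodes lecithin retinol acyltransferase, which makes the retinyl esters stored in stellate cell droplets. Its level in young replicates 1 to 4 was -0.91, -2.35, -2.37 and -2.54, and in old replicates 1 to 4 it was -0.61, -1.19, -0.64 and -0.37. The old arrays lay close together, and 3 of the 4 young arrays lay below all of them. Young replicate 1 stood inside the old range, so the groups overlapped. The means were -2.04 ± 0.76 in young and -0.70 ± 0.35 in old livers (SD, n = 4 each), a difference of 1.34 (SE 0.37, 95% confidence interval 0.52 to 2.16) or 2.53-fold on this scale. This did not pass (limma, unadjusted p = 0.00489, adjusted p = 0.207). In whole liver, fewer cells of a type and less RNA per cell cannot be told apart, which holds for every gene described here. Without young replicate 1 the difference was 1.72 and it passed, at an adjusted p = 0.0498, where 0.154% of all genes passed. With array weights, which give discordant arrays less influence, it was 1.58 (adjusted p = 0.0331, 0.979% of all genes passing). Normexp background correction, run with an offset of 50 units added to every spot, gave 0.66 and 0.69 under quantile and percentile scaling, neither past the threshold.

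Reln encodes reelin, a large secreted glycoprotein known for guiding neurons and, in liver, as a stellate cell product. The brightest probe read 2.13, 1.53, 2.37 and 2.28 in young replicates 1 to 4 and 3.51, 3.06, 3.01 and 2.94 in the old replicates. Every old array was above every young array, with the smallest gap between young replicate 3 and old replicate 4. The mean was 2.08 ± 0.38 in young and 3.13 ± 0.26 in old livers (SD, n = 4 each). The difference of 1.05 (SE 0.24, 95% confidence interval 0.52 to 1.58), or 2.07-fold, did not pass over all genes (limma, unadjusted p = 0.00148, adjusted p = 0.135). Over 22 other settings it ranged from 0.79 to 1.15 and passed in 0 of them, with a lowest adjusted p of 0.0579. Without young replicates 1 and 2 it was 0.80 (adjusted p = 0.342). Young replicate 2, the lowest array for Reln, was also the lowest for hepatocyte markers, whose mean per-gene deviation there was -0.80. Before scaling, Reln on young replicate 2 read 1020 units, the highest young value, against 868 to 984 on the other young arrays. The 75th percentile used for scaling was 352.8 units there and 178.2 to 224.8 on the other young arrays. The part of the composition of young replicate 2 in the Reln difference was not tested.

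The array carries 6 Reln probes, of which 2 were tested. The other tested probe, at chr5:21404915-21404974, read -2.63, -4.49, -3.80 and -3.63 in young and -1.25, -2.33, -2.78 and -3.52 in old livers. It was above background on 1 young and 3 old arrays, and its groups overlapped through young replicate 1. Its difference was 1.17 (SE 0.51, limma fit over probes, adjusted p = 0.348), in the same direction as the brightest probe. Of the remaining 4, those at chr5:21730695-21730754 and chr5:21848014-21848073 were each above background on 1 young and 0 old arrays, and the other 2 on none. The first of these read -0.80 in young replicate 2 and had a mean of -5.21 ± 0.34 (SD, n = 4) in old livers, opposite in direction to the tested probes.

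**Figure D1:**
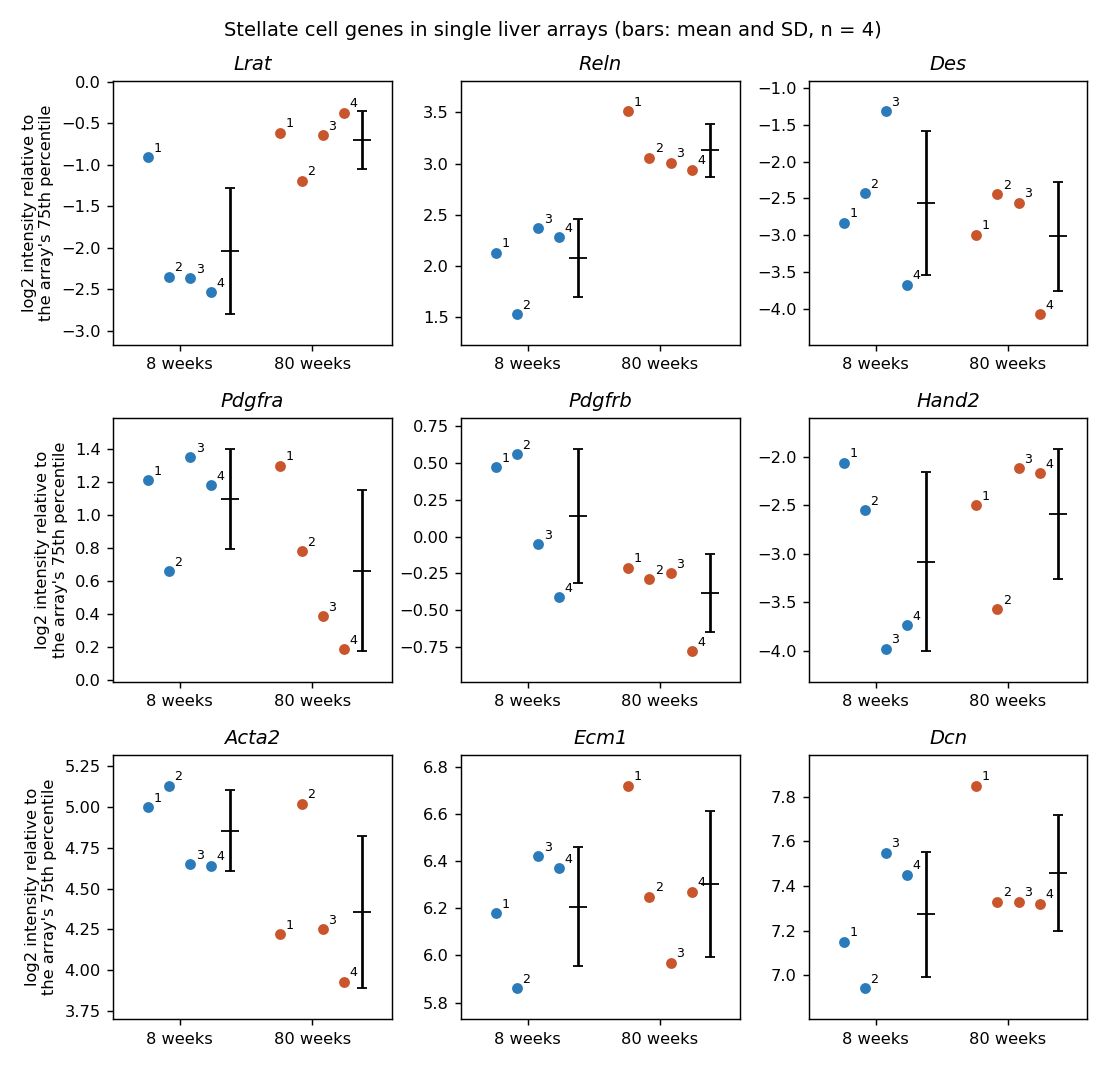
Log2 intensity relative to the array's 75th percentile for the 9 stellate cell genes, 1 panel a gene, with a numbered point for each of the 4 young (blue) and 4 old (orange) arrays and a bar for the mean and SD. Each panel has its own vertical scale. The old points of Reln lie between 2.94 and 3.51, above all young points, and in Lrat young replicate 1 stands at -0.91 while the other 3 young points lie at -2.35 or below.

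Pdgfra and Pdgfrb encode the PDGF receptors alpha and beta, tyrosine kinases on stellate cells and fibroblasts, and both had negative differences that did not pass. Pdgfra read 1.21, 0.66, 1.35 and 1.18 in young replicates and 1.30, 0.78, 0.39 and 0.19 in old replicates. Old replicates 3 and 4 were below every young array, while old replicates 1 and 2 lay within the young range. The difference was -0.44 (SE 0.28, 95% confidence interval -1.06 to 0.18, limma adjusted p = 0.474). A second tested probe gave -0.48 (SE 0.37), with its lowest reading in old replicate 2 rather than 4.

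Pdgfrb read 0.47, 0.56, -0.05 and -0.41 in the young and -0.21, -0.29, -0.25 and -0.78 in the old replicates. Young replicates 1 and 2 were the highest arrays, and young replicate 4 lay below 3 of the 4 old arrays. The means were 0.14 ± 0.45 and -0.39 ± 0.27 (SD, n = 4 each), and the difference of -0.53 (SE 0.26, 95% confidence interval -1.11 to 0.05) did not pass (limma adjusted p = 0.385). Without young replicates 1 and 2 it was -0.16 (adjusted p = 0.849), over 1.5 times smaller.

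Among the PDGF ligand genes and the soluble receptor-like gene Pdgfrl, 5 of 5 were tested and 0 passed, with 3 positive and a median of 0.30. Pdgfd, whose product acts on the beta receptor, differed by 0.76 (SE 0.25, limma adjusted p = 0.279). Its signal exceeded background on 2 young and 3 old arrays. Pdgfb differed by -0.78 (SE 0.62) and Pdgfc by 0.56 (SE 0.47). The Pdgfb difference was -0.05 and the list median 0.19 without young replicates 1 and 2. Of 20 genes that relay the receptor signal, 19 were tested and 0 passed. The median of these 19 was -0.05, with Mapk3, an ERK kinase, at 0.55 (SE 0.18, adjusted p = 0.286) and Pik3r1, a subunit of PI3-kinase, at 0.95 (SE 0.36). Without the same pair of arrays Mapk3 was at 0.35 and Pik3r1 at 0.62, and the list median was 0.01.

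Hand2 encodes a transcription factor of the mesenchyme from which stellate cells arise. Its young levels were -2.06, -2.55, -3.98 and -3.74 and its old levels -2.50, -3.57, -2.12 and -2.17. The gene was above background on 2 young and 2 old arrays, which leaves 4 of the 8 readings not well above background. The groups overlapped across nearly their whole range. The difference was 0.49 (SE 0.48, 95% confidence interval -0.59 to 1.57, limma adjusted p = 0.646), and it was 1.27 (adjusted p = 0.463) without young replicates 1 and 2. Of 25 listed mesenchymal transcription factors 20 were tested and 0 passed, with 12 positive and a median of 0.04. Tcf21, also a stellate and fibroblast regulator, differed by 0.60 (SE 0.27) and Zeb2 by -0.73 (SE 0.28). Gata4, which is known to hold stellate cells quiescent, differed by -0.44 (SE 0.21, adjusted p = 0.371). With young replicates 1 and 2 left out Tcf21 differed by 0.38 and Zeb2 by -0.40, and the list median was -0.05.

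Des encodes desmin, the intermediate filament protein by which rodent stellate cells were long recognised, and which is also abundant in muscle. It read -2.83, -2.43, -1.32 and -3.67 in young replicates and -2.99, -2.44, -2.56 and -4.07 in old replicates, above background on 3 young and 2 old arrays. Young replicate 3 was the highest array and old replicate 4 the lowest. The difference was -0.45 (SE 0.51, 95% confidence interval -1.60 to 0.70, limma adjusted p = 0.694). It was -0.04 without young replicate 3 and -0.82 (adjusted p = 0.372) without young replicate 4.

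Young replicate 3 also carried skeletal muscle transcripts, read here by each gene's brightest probe with no filter. All 12 listed skeletal muscle genes were above background there and 11 of the 12 had their highest reading there, while on each of the other 7 arrays 4 to 6 were above background. The linear signals of the 12 genes, relative to the 75th percentile, summed to 91.4 on that array and to 1.59 to 2.77 on the others. Tnnt3, a fast muscle troponin, read 3.67 there and -1.59 or below elsewhere. Myh2, a fast muscle myosin, read 3.54 there and was above background on no other array. These genes also include Ckm, Myh1 and Mb, which were above background on young replicate 3 alone. The part of muscle RNA in the Des reading of young replicate 3 was not tested. A list of intermediate filament genes and Z-disc partners of desmin, which includes the keratin genes Krt8 and Krt18, was also read. In this list 10 of 10 genes were tested and 0 passed. Of these, 9 were negative, with a median of -0.77 that was -0.51 without young replicates 1 and 2. Bag3, a chaperone partner that helps turn over strained filament proteins, read 6.19, 6.04, 5.74 and 5.50 in young and 5.06, 5.35, 4.67 and 5.02 in old livers, without overlap (difference -0.84, SE 0.22, limma adjusted p = 0.197; 3.76% of all genes lay lower in old without overlap). Flnc, filamin C, differed by -2.30 (SE 0.63, adjusted p = 0.209), with signal over background on 1 old array. Krt8, a keratin of hepatocytes and bile duct cells, differed by -0.81 (SE 0.33).

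**Figure D2:**
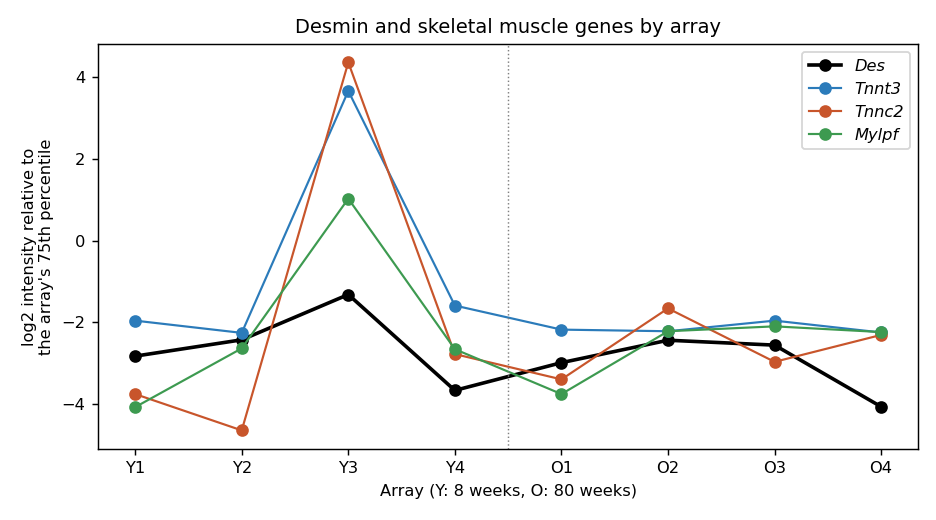
Log2 intensity relative to the array's 75th percentile (vertical axis) of Des and of the skeletal muscle genes Tnnt3, Tnnc2 and Mylpf on the 4 young (Y1 to Y4) and 4 old (O1 to O4) arrays; lines join the readings of a gene. The 3 muscle genes peak on young replicate 3, at 3.67, 4.37 and 1.03, where Des also has its highest value of -1.32.

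Acta2 encodes alpha smooth muscle actin, the marker of activated stellate cells and of vessel wall muscle. The brightest probe read 5.0, 5.13, 4.65 and 4.64 in young and 4.22, 5.02, 4.25 and 3.93 in old replicates. Old replicates 1, 3 and 4 were below all young arrays, and old replicate 2 lay near the top of the young range. The means were 4.85 ± 0.25 and 4.35 ± 0.47 (SD, n = 4 each), a difference of -0.50 (SE 0.26, 95% confidence interval -1.08 to 0.08, limma adjusted p = 0.402). Without young replicates 1 and 2 it was -0.29 (adjusted p = 0.789). The other 2 tested probes, at chr19:34315697-34315756 and chr19:34316060-34316119, followed another pattern. The brighter of these read 0.75, 2.63, 2.59 and 0.87 in young and 1.94, 1.17, 1.95 and -0.13 in old livers, so young replicate 1, among the highest by the first probe, was low by this one. Their differences of -0.30 (SE 0.64) and -0.48 (SE 0.59) had the sign of the first probe and wider errors.

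**Figure D3:**
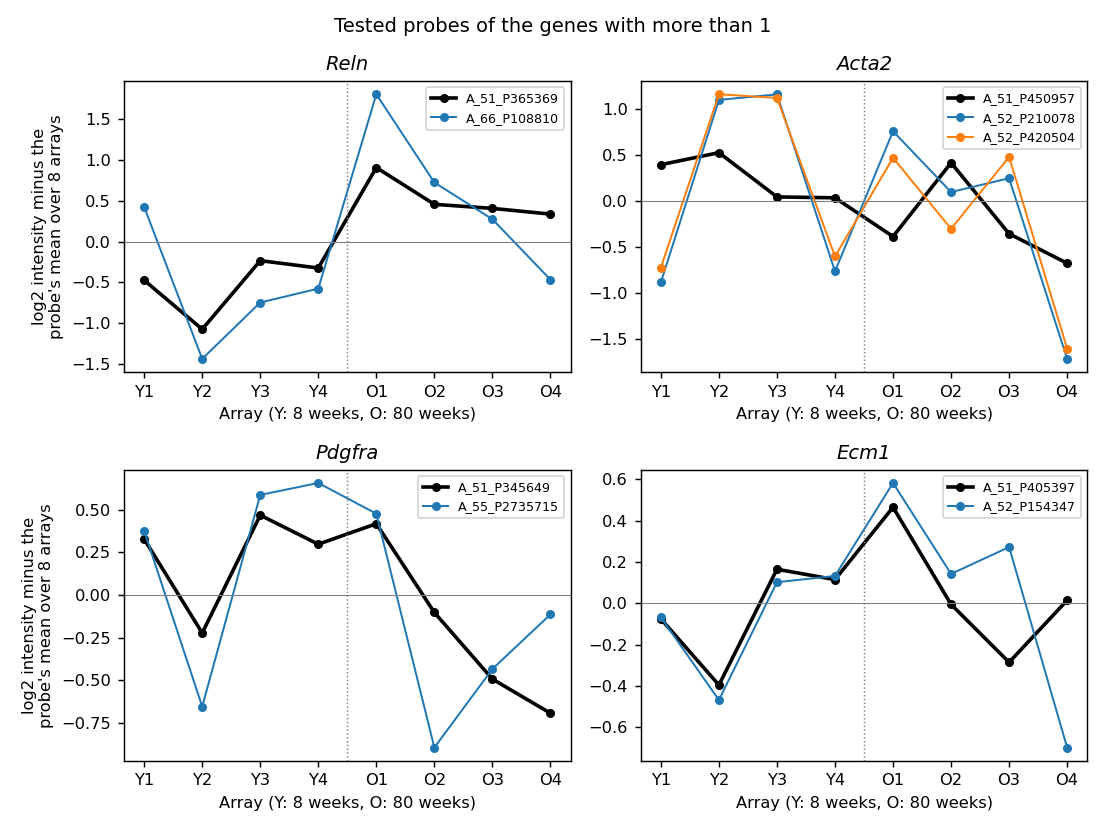
Log2 intensity minus the probe's mean over the 8 arrays, for the tested probes of Reln, Acta2, Pdgfra and Ecm1 on young (Y1 to Y4) and old (O1 to O4) arrays. The thick black line is the probe that represents the gene. For Acta2 the other 2 probes move together and part from the black line on young replicate 1, where the representing probe read 5.0 against a young mean of 4.85.

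Dcn and Ecm1 encode matrix proteins, decorin, which binds collagen and TGF-beta, and extracellular matrix protein 1, which in liver is known to keep TGF-beta latent. Dcn read 7.15, 6.94, 7.55 and 7.45 in young and 7.85, 7.33, 7.33 and 7.32 in old replicates. Old replicate 1 was the highest of all arrays, and the other 3 old arrays lay within the young range. The difference was 0.19 (SE 0.21, 95% confidence interval -0.30 to 0.67, limma adjusted p = 0.699). Ecm1 read 6.18, 5.86, 6.42 and 6.37 in young and 6.72, 6.25, 5.97 and 6.27 in old livers, with old replicate 1 again the highest array. Its difference was 0.10 (SE 0.22, 95% confidence interval -0.40 to 0.59, limma adjusted p = 0.854). Before scaling, old replicate 1 was the highest array for neither gene. Dcn read 35700 units there and 43200 in young replicate 2, and Ecm1 read 16300 and 20400. The 75th percentile of old replicate 1, 154.7 units, was the lowest of the 8 arrays. The intervals of both genes exclude a 2-fold difference in either direction, while the sign turned for each under some settings: Ecm1 was -0.01 with median scaling, and without young replicates 1 and 2 Dcn was -0.04 and Ecm1 -0.09.

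**Figure D4:**
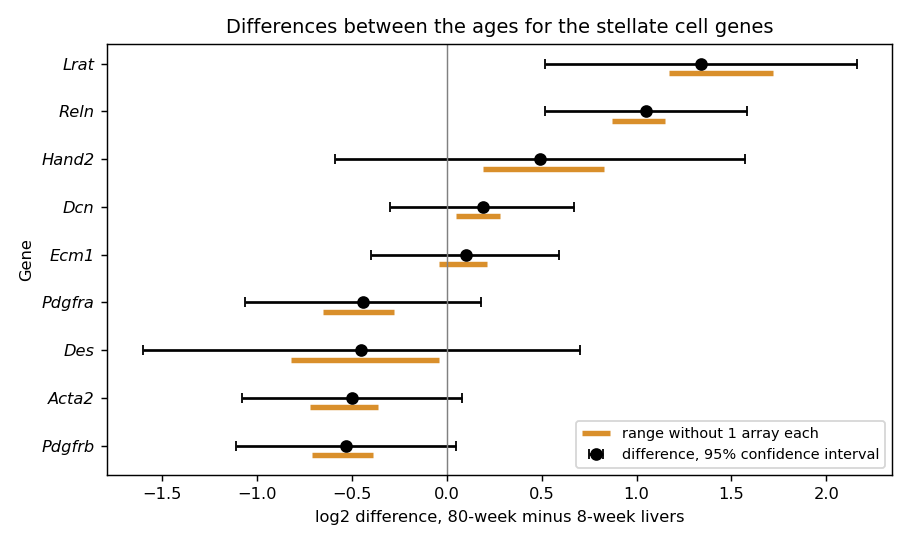
Log2 difference, 80-week minus 8-week, for each of the 9 genes (points) with its 95% confidence interval (black bars) and the range of differences when each of the 8 arrays was left out in turn (orange bars). The intervals of Lrat (0.52 to 2.16) and Reln (0.52 to 1.58) lie above 0 and the other 7 include 0; they are not adjusted for the number of genes tested.

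The 9 genes did not share a pattern over the 8 arrays. Likeness was measured as the root mean square difference between the array values of a pair of genes after each was centred on its own mean. Dcn and Ecm1 were the closest pair, at 0.11, followed by Acta2 and Pdgfrb at 0.28, and Des and Lrat were the farthest apart, at 1.35. Genes that vary little are close to each other by this measure for that reason alone. Among 13827 other genes with an official symbol, the most like Pdgfra were Sparc, a matrix gene of mesenchymal cells, and Mapk11, both at 0.11. For Acta2 they were Slc12a4 at 0.13 and the actin genes Actg1 at 0.14 and Actg2 at 0.15. The nearest to Reln were Kcnip3 and Arvcf, both at 0.14, to Lrat Cyp2c53-ps at 0.33, to Pdgfrb Trip10 at 0.12, to Hand2 Aif1 at 0.32 and to Des Actr3b at 0.41. Of the matrix genes, Ecm1 lay nearest to Nrg1 and Dcn to Btbd16, each at 0.08.

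Further genes known from quiescent stellate cells had mostly positive differences. Of 24 listed, 21 were tested and 0 passed, 17 were positive and the median was 0.69, against 0.02 over all genes. In 9 of the 21 every old array was above every young array, which held for 4.62% of all genes, and 11 were higher and 2 lower at an unadjusted p under 0.05, against 7.91% and 6.14% of all genes. Pth1r, the parathyroid hormone receptor, read -1.08, -1.16, -0.68 and -1.01 in young and 0.56, -0.35, 0.99 and 0.63 in old livers. The groups lay apart, and the difference was 1.44 (SE 0.29, limma adjusted p = 0.0908). Without old replicate 2, its lowest old array, it was 1.71 and passed (adjusted p = 0.0231, 0.364% of all genes passing). Cygb, cytoglobin, the oxygen-binding protein of stellate cells, differed by 0.97 (SE 0.23, adjusted p = 0.150) and Bmp5, a growth factor of the BMP family, by 0.73 (SE 0.19, adjusted p = 0.194), also without overlap. Without young replicates 1 and 2, 15 of the 21 were positive with a median of 0.39, where 42.5% of all genes were positive. In that setting 11 lay higher in old without overlap, as did 7.89% of all genes. The summed linear level of the 21 genes, which is weighted to the brightest probes, ran from 85 to 166 in young and from 180 to 243 in old livers. Cxcl12, the brightest of the 21, weighs most in this sum and differed by 0.86 (SE 0.24).

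Genes of activated stellate cells and myofibroblasts had mostly negative differences. Of 24 listed, 22 were tested and 0 passed, with 5 positive and 17 negative and a median of -0.24. Their summed level overlapped, at 362 to 442 in young and 347 to 393 in old livers. The brightest of the 22, Fn1, weighs most in this sum and differed by 0.07 (SE 0.17). Lgals1, galectin 1, read 1.5, 1.47, 0.55 and 0.92 in young and 1.62, 2.64, 4.24 and 4.31 in old livers (difference 2.09, SE 0.57, limma adjusted p = 0.207) and was the only gene of the 22 whose groups did not overlap, where 4.62% of all genes lay higher in old without overlap. Myl9, a myosin light chain, differed by -1.06 (SE 0.43) and Tagln, a smooth muscle actin-binding protein, by -0.84 (SE 0.40). Tpm1, a tropomyosin, differed by 0.63 by its brightest probe but by -1.05 by the mean of its probes. Without young replicates 1 and 2, 10 of the 22 (45.5%) were positive with a median of -0.05, against 42.5% and -0.06 over all genes, so the lean to negative differences relative to all genes was gone. In that setting Myl9 differed by -0.45, Tagln by -0.43 and Tpm1 by 0.29. 

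Of 27 retinoid handling genes besides Lrat, 25 were on the array, 21 were tested and 0 passed, with 13 positive and a median of 0.14. Cyp26a1, which degrades retinoic acid, read -0.28, -0.63, -0.06 and 0.12 in young and 0.70, 0.76, 2.02 and 2.04 in old livers, without overlap (difference 1.59, SE 0.36, limma adjusted p = 0.135). Aldh1a1, which makes retinoic acid and is abundant in hepatocytes, differed by 1.39 (SE 0.40, adjusted p = 0.231). Dhrs3, which returns retinaldehyde to retinol, differed by 1.23 (SE 0.45), and Rxra, a nuclear retinoid receptor, by 0.63 (SE 0.23), both with groups apart. They were 0.51 and 0.27 without young replicates 1 and 2, and the list median was 0.07. The genes Cyp26a1, Aldh1a1, Dhrs3 and Rxra are also expressed in hepatocytes, whose 8 markers had a median difference of 0.07 and summed to 2070 to 4250 in young and 3020 to 4600 in old livers. Their part in the retinoid differences was not tested.

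Of 10 reelin pathway genes 9 were tested and 0 passed, with 6 positive and a median of 0.13. Pafah1b1, a dynein regulator downstream of reelin, differed by 0.58 (SE 0.19, limma adjusted p = 0.273) with groups apart. Crkl, an adaptor in reelin signalling, differed by -0.44 (SE 0.25, adjusted p = 0.434), and Plat, a protease that cleaves reelin, by -0.73 (SE 0.54, adjusted p = 0.536). The receptor gene Lrp8 differed by 0.40 (SE 0.44), with old replicate 1 at 0.64 and the other 7 arrays at -1.14 or below. Crkl differed by -0.09 and Plat by -0.11 without young replicates 1 and 2, and in that setting 3 of the 9 were positive with a median of -0.05. Of 11 small leucine-rich proteoglycans besides Dcn, 8 were tested and 0 passed, with 7 positive and a median of 0.50. In 4 of the 8 every old array was above every young array, as in 4.62% of all genes. Podn, podocan, differed by 1.06 (SE 0.29, adjusted p = 0.203) and Omd, osteomodulin, by 1.21 (SE 0.44, adjusted p = 0.305). When young replicates 1 and 2 were left out, 5 of the 8 were positive, the median was 0.19 and Omd differed by 0.40.

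Of 22 genes for TGF-beta, its latency and its receptors, 20 were tested and 0 passed, with 13 negative and a median of -0.16. Tgfb2 differed by -1.36 (SE 0.34, limma adjusted p = 0.164) without overlap. Its signal exceeded background on 4 young arrays but on 1 old array. Over 21 other settings the Tgfb2 difference ran from -1.56 to -0.50. Smad3, which carries the receptor signal to the nucleus, read 4.36, 3.46, 1.58 and 1.79 in young and 0.48, 1.51, 0.53 and 1.15 in old livers (difference -1.88, SE 0.59, adjusted p = 0.263). Its groups did not overlap, and young replicates 1 and 2 were far above the other 6 arrays. Without this pair the Smad3 difference was -0.77 (adjusted p = 0.553) and the list median -0.05, with 9 of 20 positive. Itgb5, an integrin subunit that helps release TGF-beta, differed by 0.67 (SE 0.19, adjusted p = 0.226).

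**Figure D5:**
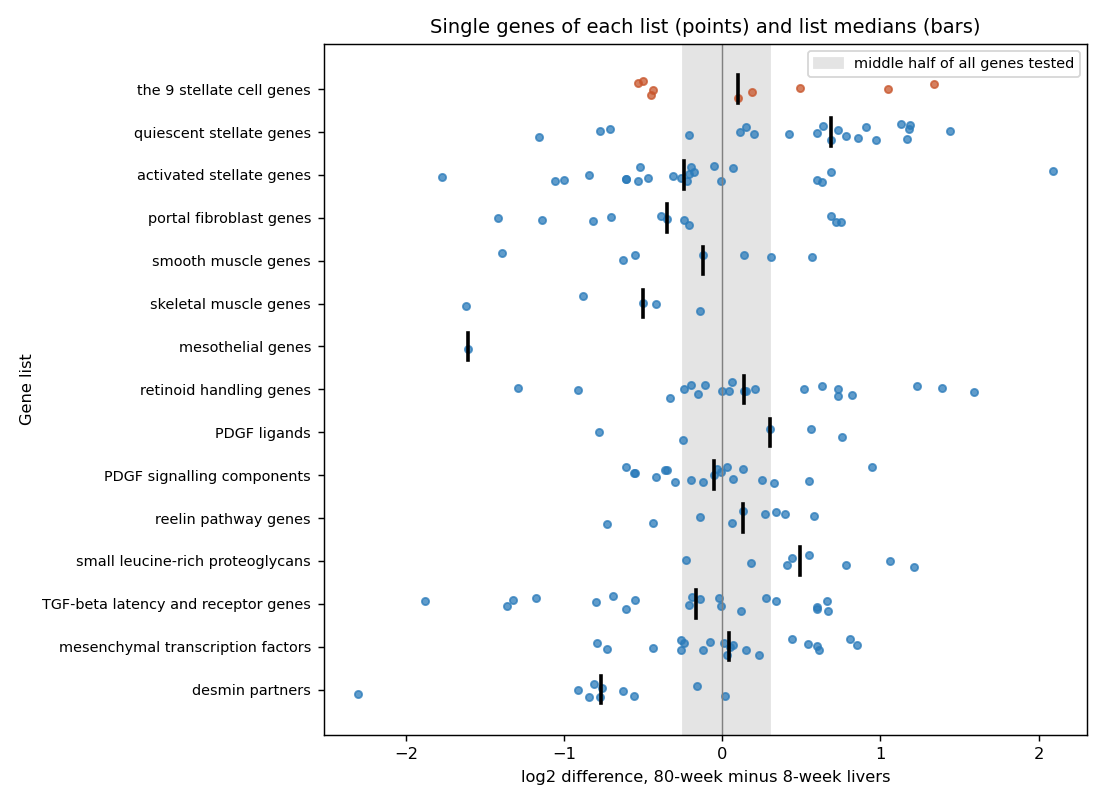
Log2 difference, 80-week minus 8-week, of every tested gene of the 9 stellate cell genes and of 14 related lists (points), with each list's median (black bar) and the interquartile range of all genes tested (grey band). The median of the quiescent stellate list is 0.69 and that of the activated list -0.24; no gene in any of these lists passed the threshold.

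Markers of other cells that share these genes were read beside them. Of 15 portal fibroblast genes 11 were tested and 0 passed, with 8 negative and a median of -0.35. Among them Gas6 differed by 0.75 (SE 0.22) with groups apart, and Fbln1 by -1.42 (SE 0.49) with overlap. Fbln1 was above background on 4 young and 2 old arrays, and its difference ran from -1.87 to -0.44 over other settings. Of 12 smooth muscle genes 7 were tested, with 4 negative and a median of -0.12, and their sum was 18.2 to 23.2 in young and 16.1 to 19.9 in old livers. The defining smooth muscle gene Myocd was not tested. Of 7 mesothelial genes Msln alone was tested (difference -1.61, SE 0.55, limma adjusted p = 0.291, and -0.95 without young replicates 1 and 2), while Wt1 and Upk3b were among the 6 not tested. Msln was above background on 4 young and 2 old arrays, and its difference ran from -1.98 to -0.60 over other settings. Sinusoidal endothelial markers summed to 80.3 to 123 in young and 77 to 127 in old livers, and Kupffer cell markers to 52.8 to 160 and 65.3 to 252. Of 6 adipocyte markers 4 were tested, all were positive and 1 passed, their sum was 1.52 to 4.14 in young and 20 to 179 in old livers, and Adipoq and Retn were not tested. Of 6 lymphocyte markers 3 were tested, all were positive and 1 passed, with a sum of 1.56 to 3.81 in young and 3.74 to 6.91 in old livers, and Cd3g, Cd79a and Ms4a1 were not tested. Over all genes tested, 0.33% passed and were higher in old livers. The part of these cell types in the stellate cell results was not tested.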

How the data were processed

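Total RNA was labelled with Cy3 and hybridised to 8 single-colour Agilent arrays on 1 slide, read in 1 scan. The deposited scanner files hold intensity values that Agilent Feature Extraction 10.7.3.1 had background-corrected, per the file headers. Version 9.1 is the one given in the submitters' processing notes. The authors' deposited table of intensity values lay within 1% of the processed signal for 100% of 56605 probes and was used as an alternative only.

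From the processed signal, log2 was taken, outlier spots (59 to 97 per array) were left out, repeat spots were averaged, and the 75th percentile of the array (154.7 to 352.8 units) was subtracted. Probes well above background on at least 4 of 8 arrays were tested, and the brightest stood for its gene. Ages were compared with limma 3.58.1 (R 4.3.3) and Benjamini-Hochberg adjustment at 0.05, after a check on simulated data. The number of arrays limits the precision. The genes, the 14 lists and the rule for naming (the 9 genes, their 3 nearest genes, and from each list the 4 genes of smallest p) were chosen with earlier results of these data known. A gene that this rule names in the quiescent list is not reported here. Symbols and promoters came from RefSeq tables of GRCm38.p6. The alternatives covered background correction, scaling, filters, probe averaging, variance models, a replicate block, the authors' table and omission of arrays. Omitting young replicates 1 and 2 together was chosen after the data were seen.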

Additional observations from a re-analysis of the deposited data

Results flagged for a closer look

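Among the 9 stellate cell genes, 3 of 18 groups of 4 values contained a value set apart from the remaining 3 (16.7%), and over these and the named list genes together 10 of 124 did (8.06%), where chance gives about 5%. The test compared the gap to the nearest array, as a share of the group's range, with Dixon's critical value for 4 samples. Lrat in young replicate 1 stood at -0.91, with the next young value at -2.35. Pdgfrb in old replicate 4 was the lowest of its group at -0.78, and Dcn in old replicate 1 the highest of its group at 7.85.

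Among the list genes, Tnnt3 in young replicate 3 stood at 3.67 and Mylpf in old replicate 1 at -3.76, the latter on an array where it was not among the 3 old readings above background. Old replicate 3 was the lowest of its group for Pdgfb at -3.06 and for Pdgfa at 1.32. Young replicate 2 was the lowest of its group for Pik3r1 at -0.16 and for Podn at -1.89. Flnc in old replicate 1 was the highest of its group at -1.74.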

How the results depend on the processing

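Over 13 other settings of processing and the omission of each of the 8 arrays in turn, Lrat, Reln and Hand2 stayed positive and Des, Pdgfra, Pdgfrb and Acta2 negative. Des and Hand2 had no value when signal was required on all arrays. Of the 9 genes 0 passed, against 1 (Lrat) with array weights and 0 to 1 as single arrays were left out. Lrat was 1.58 (adjusted p = 0.0331) with array weights and 1.17 to 1.72 (adjusted p from 0.0498 to 0.501) without single arrays. Ecm1 was -0.01 with median scaling, -0.12 with array weights, -0.09 without young replicates 1 and 2 together, and -0.04 to 0.21 without single arrays. Dcn was -0.06 with array weights and was -0.04 with that pair of arrays left out. The count over all genes was 63, against 21 with signal required on all arrays, 172 with array weights, 14 without young replicates 1 and 2, and 27 to 77 without single arrays; leaving out young replicate 1 or old replicate 3 or 4 gave 27, 38 and 39. In the quiescent list 0 passed, and 0 to 1 without single arrays. Of 53 named list genes, 6 turned in sign: Tpm1 was -1.05 by the mean of its probes, and Pdgfa was 0.06 under array weights and 0.19 with young replicates 1 and 2 left out. Without single arrays Pdgfa ran from -0.44 to 0.09, Pvalb from -0.83 to 0.12, Myh4 from -0.32 to 0.02, Mylpf from -1.16 to 0.54 and Lrp8 from -0.11 to 0.65. The cause of these shifts was not tested. Median scaling moved the median of all genes from 0.02 to -0.09. With the replicate number as a block, 70 genes passed and 0 of the 9; deviations of same-numbered arrays correlated at 0.0256 to 0.141, which does not show that the numbers pair the samples.

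Depth limits Des and Hand2, which were above background on 5 and 4 of the 8 arrays. With 4 arrays a group, intervals for single genes spanned more than 1 log2 unit for 7 of the 9 genes.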
